A study of Homo sapiens with 21 samples.

Results

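EPS8 and GAS7 are a pair of actin regulator genes whose enhancers and boundary sites served as Tri-C viewpoints. Tri-C counts ligation products that hold the captured viewpoint and further fragments of the same chromosome, called reporters, so that each count describes a three-way contact of the viewpoint with 2 reporters. All 14 count files of these loci were taken from 371 files, 7 for each of 2 genes among 53 targeted loci, and comparisons were set against the 51 loci that the study quantified, of which 36, EPS8 and GAS7 included, were classed by the study as specific to induced macrophages (iMacs) and 15 as specific to B cells.

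The cells were BLaER1, an established human B cell leukaemia line that turns into macrophage-like cells when the transcription factor C/EBPα, fused to a hormone-responsive domain, is activated by 17β-estradiol in medium with IL-3 and CSF-1. Enhancer viewpoints were captured in a BLaER subclone CTCF-AID (auxin inducible degron) collected at 96 h with auxin given throughout, and in the BLaER line at 0, 24 and 96 h. Boundary viewpoints were captured in the BLaER line at 0, 24 and 96 h. The 96 h library of the line without auxin is the control of the depleted library, so clone, auxin and loss of CTCF cannot be told apart. The 21 samples form 7 groups of 3 biological replicates, but the replicates of a group were merged into 1 deposited file a locus. All tests therefore compare 1 library with another, not conditions, intervals cover counting error only, and a read with several reporters enters several counts, which makes them narrower than independent reads would.

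EPS8 encodes a protein that caps and bundles actin filaments and acts with ABI1 and SOS1 in Rac signalling, which shapes membrane ruffles and protrusions. GAS7 encodes an F-BAR domain protein that binds membranes and actin filaments and has been linked to neurite outgrowth and, in macrophages, to the phagocytic cup. CTCF binds DNA and halts the cohesin complex as it extrudes a loop, preferentially where a pair of CTCF motifs point towards each other. Active enhancers gather transcription factors and coactivators, and several enhancers, promoters and CTCF-binding sites (CBSs) of a locus can meet in a chromatin hub, which three-way contacts can register.

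Both loci share the same layout, in which the enhancer (E) lies inside the gene, with the promoter (P) on one side and the boundary CBS (C) on the other. EPS8 (ENSG00000151491.14) is on the minus strand of chromosome 12 (hg38). Its enhancer fragment at chr12:15726067-15726221 is intronic, the start of its canonical transcript lies at 15789388, 63.2 kb towards higher coordinates, and its boundary fragment at chr12:15590508-15590785, in an intron of the neighbouring gene PTPRO, lies 135.5 kb towards lower coordinates. GAS7 (ENSG00000007237.19) is on the minus strand of chromosome 17, with an intronic enhancer fragment at chr17:10063840-10064017, a canonical start at 10198606, 134.7 kb away, and a boundary fragment 98.1 kb away on the other side. Distances below are counted from the enhancer, with positive values on the promoter side. Promoter and boundary site lie 198.7 kb apart at EPS8 and 232.8 kb apart at GAS7.

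Of the viewpoint fragments, cut by NlaIII, 3 are printed, both enhancers and the EPS8 boundary site, as places from which contacts were read. They were searched on both strands for a CTCF core (CCA, AG and GGC with 2 free bases between them, up to 1 mismatch), a C/EBP motif (TTGCNNAA), a PU.1 motif (GAGGAAG) and an EBF1 motif (TCCC and GGGA with 2 free bases between them), and matches are in capitals on the plus strand of hg38.
EPS8 enhancer: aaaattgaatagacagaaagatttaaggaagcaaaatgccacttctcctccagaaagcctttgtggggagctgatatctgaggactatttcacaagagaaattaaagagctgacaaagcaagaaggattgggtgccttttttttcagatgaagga
EPS8 boundary CBS: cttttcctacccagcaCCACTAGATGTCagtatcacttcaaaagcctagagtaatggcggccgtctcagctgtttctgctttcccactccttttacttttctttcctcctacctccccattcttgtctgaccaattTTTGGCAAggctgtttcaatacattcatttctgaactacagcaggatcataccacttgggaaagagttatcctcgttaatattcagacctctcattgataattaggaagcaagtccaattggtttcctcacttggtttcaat
GAS7 enhancer: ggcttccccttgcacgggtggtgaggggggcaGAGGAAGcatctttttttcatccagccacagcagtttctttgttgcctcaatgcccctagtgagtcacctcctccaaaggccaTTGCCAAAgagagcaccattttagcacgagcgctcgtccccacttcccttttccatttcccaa

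The EPS8 enhancer fragment held none of the 4 motifs in these letters. The GAS7 enhancer fragment held a PU.1 and a C/EBP match, which 5.03% and 7.57% of windows of its length on chromosome 17 also held. The EPS8 boundary fragment held a CTCF core on the plus strand with 1 mismatch, pointing towards enhancer and promoter. Such a match was present in 13.6% of windows of the same length on chromosome 12. The fragment also held a C/EBP match on the minus strand, found in 14.5% of windows of its length.

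Beyond the viewpoints, the study annotated elements in its own contact maps of these cells. The 60 bases around a CTCF core are printed, on the strand of the match, for 3 of them whose windows are described below. The EPS8 element at +130.4 kb (chr12:15856528-15856587) carries an exact core on the minus strand, which faces the boundary CBS, and an overlapping one with 1 mismatch on the plus strand, the element at -193.6 kb (chr12:15532545-15532604) carries a core with 1 mismatch on the plus strand, and the GAS7 element at +232.0 kb (chr17:10295894-10295953) carries an exact core on the plus strand, facing away from the enhancer.
EPS8 +130.4 kb: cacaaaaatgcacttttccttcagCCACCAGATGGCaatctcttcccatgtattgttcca
EPS8 -193.6 kb: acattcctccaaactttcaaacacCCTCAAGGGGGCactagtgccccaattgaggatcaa
GAS7 +232.0 kb: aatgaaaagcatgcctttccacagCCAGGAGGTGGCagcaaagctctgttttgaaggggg
Of all windows of the element's length, 0.287% on chromosome 12 held an exact core as the EPS8 element at +130.4 kb did, and 1.96% on chromosome 17 did as the GAS7 element at +232.0 kb did. A core with up to 1 mismatch, as at -193.6 kb, was in 5.75% of windows of that element's length on chromosome 12. Both EPS8 sites also have a longer annotation, of 773 and 297 bases, at whose lengths these shares were 1.87% and 14.5%.

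Depth differed between the loci and viewpoints. Counts whose reporters both fell within 1 Mb of the enhancer numbered 51566 in the depleted library and 45489, 49607 and 32991 at 0, 24 and 96 h for EPS8, and 84945 in the depleted library and 54883, 58643 and 45879 at 0, 24 and 96 h for GAS7. The boundary viewpoints held 27739, 36143 and 39811 counts at EPS8 and 19369, 21061 and 18400 at GAS7, in a range of 12563 to 87640 over the boundary libraries of 51 loci. The GAS7 boundary libraries were among the shallowest, at ranks 46, 47 and 48 of 51 from the deepest. Each distinct fragment pair was counted 2.86 times on average in the depleted library and 1.85 times in the 96 h control at the EPS8 enhancer, and 3.13 and 2.00 times at the GAS7 enhancer, and the part of this difference in the results was not tested beyond counting each pair once.

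The first question was how often the enhancer met the promoter together with any other distant fragment (E-P-X). The measure is the share of all counts in which 1 reporter lay in the 12 kb window around the canonical start and in which viewpoint and reporters all lay over 10 kb apart, called distant below. At EPS8 the share was 0.967% at 0 h, 1.10% at 24 h and 1.90% at 96 h (440, 548 and 627 counts). The EPS8 promoter window thus gained most of its contacts between 24 h and 96 h. At GAS7 the share was 0.896% at 0 h, 1.19% at 24 h and 1.10% at 96 h (492, 696 and 505 counts), and the intervals of the later 2 libraries overlapped.

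As a log2 odds ratio of window counts against all other counts, E-P-X at EPS8 was 0.19 at 24 h against 0 h (95% interval 0.01 to 0.38) and 0.99 at 96 h against 0 h (0.81 to 1.17), with adjusted p-values of 0.0466 and 1.70e-28 in the exact conditional binomial test adjusted over all loci, the first a call that 5 alternative settings removed. E-P-X at GAS7 was 0.41 at 24 h (0.24 to 0.58, exact test, adjusted p = 2.29e-06) and 0.30 at 96 h (0.12 to 0.48, adjusted p = 0.00124). Both genes were thus called higher at both times, as were 54.9% of the 51 loci at 24 h and 68.6% at 96 h, so a call in itself sets neither gene apart. Their order does differ. Among the 36 iMac loci, EPS8 held rank 27 at 24 h and rank 19 at 96 h, counted from the highest ratio, while GAS7 held rank 17 at 24 h and rank 35 at 96 h.

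From 24 h to 96 h, E-P-X rose at EPS8 with a log2 odds ratio of 0.79 (0.63 to 0.96), as it did at 60.8% of loci. At GAS7 it was -0.11 (-0.28 to 0.06, exact test, adjusted p = 0.228), the lowest of the 36 iMac loci. E-P-X takes the canonical start only. The study also annotated promoter elements in the windows at -47.0 and +48.6 kb at GAS7 and at +156.2 kb at EPS8, which this measure leaves out. The difference between the genes in this step was 0.90 (0.67 to 1.14), EPS8 minus GAS7. At 24 h against 0 h the difference was -0.22, with an interval of -0.46 to 0.03 that includes 0.

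The EPS8 promoter window of the depleted library held 446 counts, 0.865%, against 627 counts, 1.90%, in the 96 h control. The GAS7 window held 596 counts, 0.702%, against 505 counts, 1.10%, in the control. The depleted library was lower at both genes, by a log2 odds ratio of -1.15 at EPS8 (-1.33 to -0.97) and -0.66 at GAS7 (-0.83 to -0.48), among 92.2% of loci called lower and 0% called higher. The fall was deeper at EPS8 by -0.49 (-0.74 to -0.25). The median over 51 loci was -0.93, which places EPS8 beyond it and GAS7 short of it, at rank 6 of 36 iMac loci counted from the smallest loss.

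**Figure D1:**
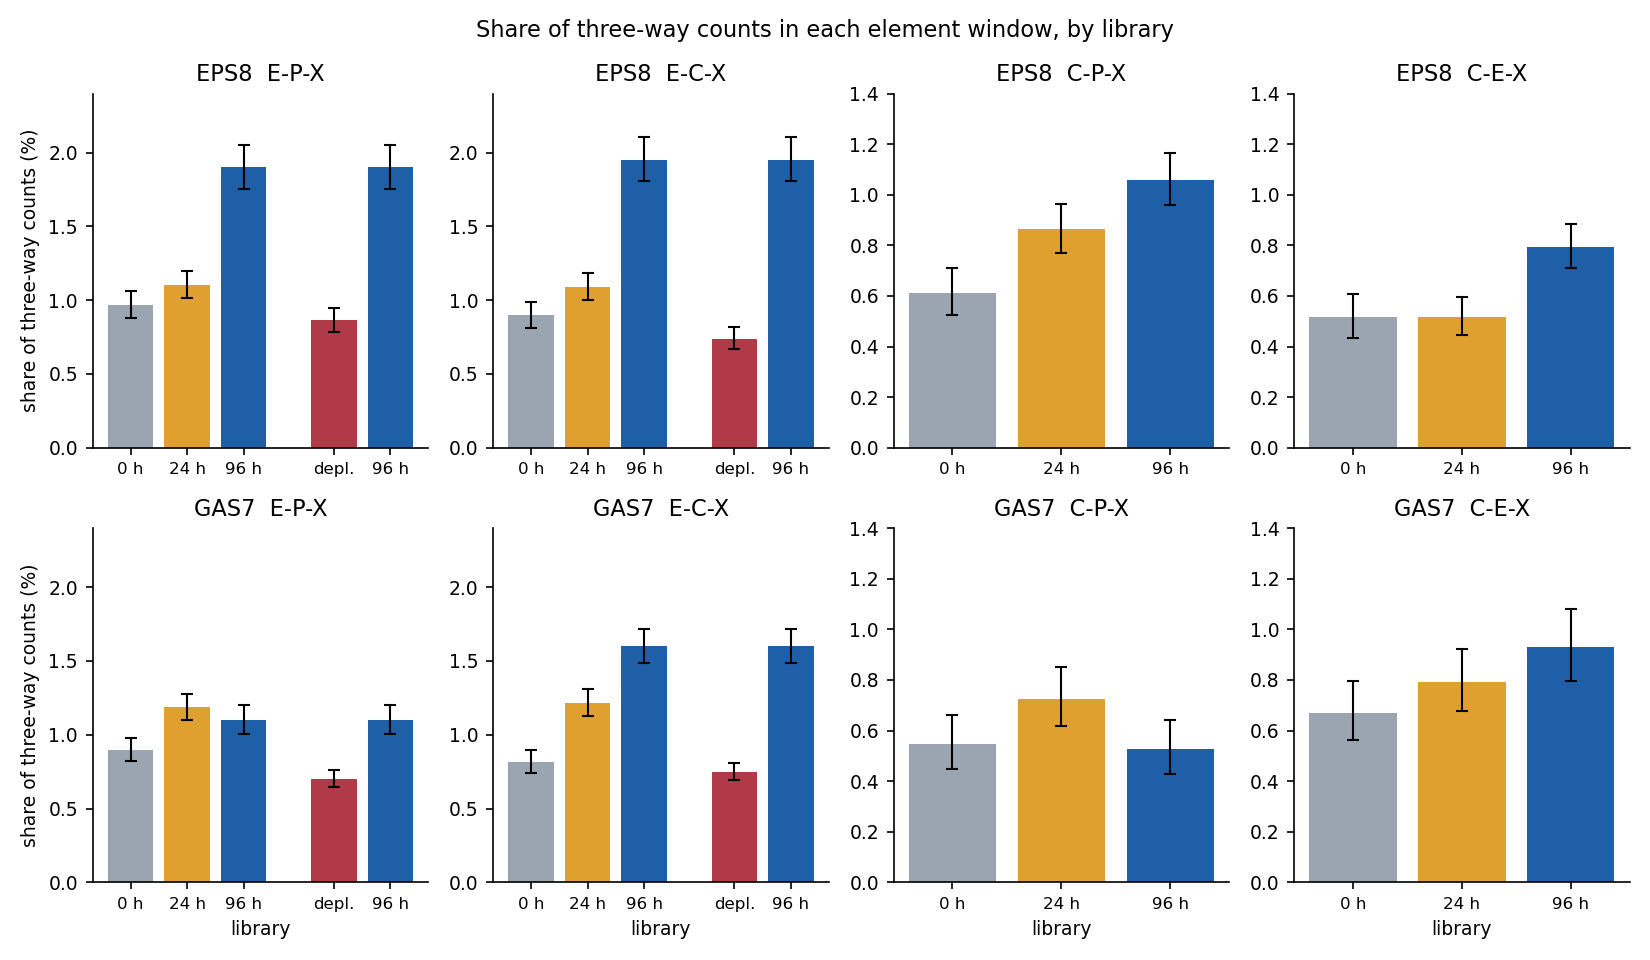
Share of three-way counts (%, bars, with exact 95% intervals of counting error) in which the enhancer met the promoter (E-P-X) or the boundary CBS (E-C-X) with another distant fragment, and in which the boundary CBS met the promoter (C-P-X) or the enhancer (C-E-X), by library for EPS8 and GAS7. E-P-X and E-C-X reach their highest share at 96 h at EPS8 (1.90% and 1.95%), GAS7 E-P-X is highest at 24 h (1.19%), and the depleted library is below its 96 h control in all 4 panels that hold it.

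Contacts of the enhancer with the boundary CBS (E-C-X) rose at both loci. At EPS8 the share was 0.899% at 0 h, 1.09% at 24 h and 1.95% at 96 h (409, 541 and 644 counts). At GAS7 it was 0.814% at 0 h, 1.22% at 24 h and 1.60% at 96 h (447, 713 and 734 counts). The log2 odds ratio at 96 h against 0 h was 1.13 at EPS8 (0.95 to 1.32) and 0.98 at GAS7 (0.81 to 1.16), ranks 5 and 9 of 36 iMac loci, in a comparison in which 60.8% of loci rose. The difference between the genes was 0.15 (-0.10 to 0.40), which counting error does not separate from 0.

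The timing of the boundary contact was again earlier at GAS7. At 24 h against 0 h, where 45.1% of loci rose, E-C-X rose by 0.28 at EPS8 (0.09 to 0.47) and by 0.58 at GAS7 (0.41 to 0.76), a difference of -0.30 (-0.56 to -0.05). From 24 h to 96 h, where 58.8% of loci rose, it rose by 0.85 at EPS8 (0.69 to 1.02) and by 0.40 at GAS7 (0.25 to 0.55). The difference in this second step was 0.45 (0.23 to 0.67), EPS8 minus GAS7. Thus at GAS7 the boundary window kept gaining after 24 h while the canonical promoter window did not.

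With CTCF depleted, the EPS8 boundary window held 381 counts, 0.739%, against 644 counts, 1.95%, in the 96 h control. The GAS7 window held 637 counts, 0.750%, against 734 counts, 1.60%, in the control. E-C-X was lower at EPS8 by a log2 odds ratio of -1.42 (-1.61 to -1.23) and at GAS7 by -1.11 (-1.26 to -0.95), among 92.2% of loci that fell. At each gene the boundary contact had the lower ratio of the pair, with -1.42 for boundary and -1.15 for promoter at EPS8 and -1.11 for boundary and -0.66 for promoter at GAS7, although this difference between windows was not tested.

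Counts that joined all of enhancer, promoter window and boundary window (E-P-C) were few. EPS8 had 6 such counts in the depleted library and 3, 2 and 13 at 0, 24 and 96 h. GAS7 had 19 in the depleted library and 5, 8 and 13 at 0, 24 and 96 h. The highest number stood at 96 h in each time course. A test needed 20 counts over both libraries, which only GAS7 met, with log2 odds ratios of 1.02 at 96 h against 24 h (-0.33 to 2.53) and -0.36 in the depleted library against the 96 h control (-1.44 to 0.80), neither called. Of the loci tested, 42.4% rose in the first of these comparisons and 70% fell in the second.

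Beyond the boundary site, the contacts of the loci moved in opposite order. The measure takes the distant reporters on the side of the CBS and gives the percentage that lay past it, without the 12 kb around it. At EPS8 it was 52.7% at 0 h, 53.4% at 24 h and 42.0% at 96 h. At GAS7 it was 44.2% at 0 h, 26.7% at 24 h and 28.8% at 96 h. The EPS8 enhancer thus lost contacts past its CBS only between 24 h and 96 h, and the GAS7 enhancer did so within 24 h.

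At 24 h against 0 h the log2 odds ratio of lying beyond the site was 0.04 at EPS8 (-0.01 to 0.08), with no call. At GAS7 it was -1.12 (-1.19 to -1.06), the lowest of all 51 loci, of which 43.1% fell. At 96 h against 24 h EPS8 fell by 0.66 on the log2 scale (-0.71 to -0.61), as 72.5% of loci fell, while GAS7 rose by 0.15 (0.08 to 0.22), as 17.6% did, a rise that came to 0.0022 with an exclusion of 20 kb. The difference between the genes was 1.16 (1.06 to 1.27) in the first step and -0.82 (-0.93 to -0.71) in the second, EPS8 minus GAS7. Over the whole course to 96 h, a comparison in which 72.5% of loci fell, both were lower, with ratios of -0.63 at EPS8 and -0.97 at GAS7.

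In the depleted library 60.3% of such reporters at EPS8 lay beyond the site, against 42.0% in the 96 h control. At GAS7 it was 43.5%, against 28.8% in the control. The log2 odds ratios were 1.07 at EPS8 (1.02 to 1.12) and 0.93 at GAS7 (0.86 to 0.99), in a comparison in which 96.1% of loci rose. At both genes the depleted share lay near or above that of the cells at 0 h, which were 52.7% and 44.2%. At EPS8 7278 reporters lay past the site and 4790 before it in the depleted library, against 4905 and 6784 in the control. At GAS7 these were 6432 and 8370 against 3181 and 7863. All counts numbered 51566 and 32991 at EPS8 and 84945 and 45879 at GAS7. Relative to these totals, reporters before the site fell at both genes, so the ratio does not in itself show a gain past it.

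The share of counts that were distant at all separated the genes as well. At the EPS8 enhancer it was 31.1% at 0 h, 31.4% at 24 h and 31.7% at 96 h, and at the GAS7 enhancer 24.9%, 29.1% and 32.0%. The log2 odds ratio at EPS8 was 0.02 at 24 h (-0.02 to 0.05) and 0.04 at 96 h (-0.001 to 0.07), with no call, but -0.051 and -0.12, both called lower, with neighbouring fragments left out, that is, without pairs of adjacent restriction fragments and fragments next to the viewpoint. At GAS7 it was 0.30 at 24 h (0.27 to 0.34) and 0.50 at 96 h (0.47 to 0.54), the highest of 51 loci in both comparisons, of which 41.2% and 52.9% rose, and 0.20 from 24 h to 96 h, where 47.1% rose, and the value at 24 h was 0.17 with neighbouring fragments left out. With CTCF depleted the share was 21.0% at EPS8, against 31.7% in the 96 h control, and 21.6% at GAS7, against 32.0% in the control. All 51 loci, 100%, fell in this comparison, with a median of -0.77 and values of -0.80 at EPS8 and -0.77 at GAS7. These were -0.24 and -0.40 with neighbouring fragments left out, and -0.39 and -0.26 with each pair counted once.

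That general fall touches the window values. Relative to distant counts in place of all counts, the median E-P-X ratio of the depleted library over 51 loci was -0.38 in place of -0.93, and GAS7 E-P-X was -0.087, no longer called. GAS7 E-P-X at 96 h against 0 h also turned to -0.065 on that scale, whereas EPS8 kept both calls. For E-C-X, the median ratio of the depleted library over 51 loci was -0.55 relative to distant counts, in place of -1.10. With each pair counted once, the medians of the depleted library were -0.59 for E-P-X and -0.71 for E-C-X.

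**Figure D2:**
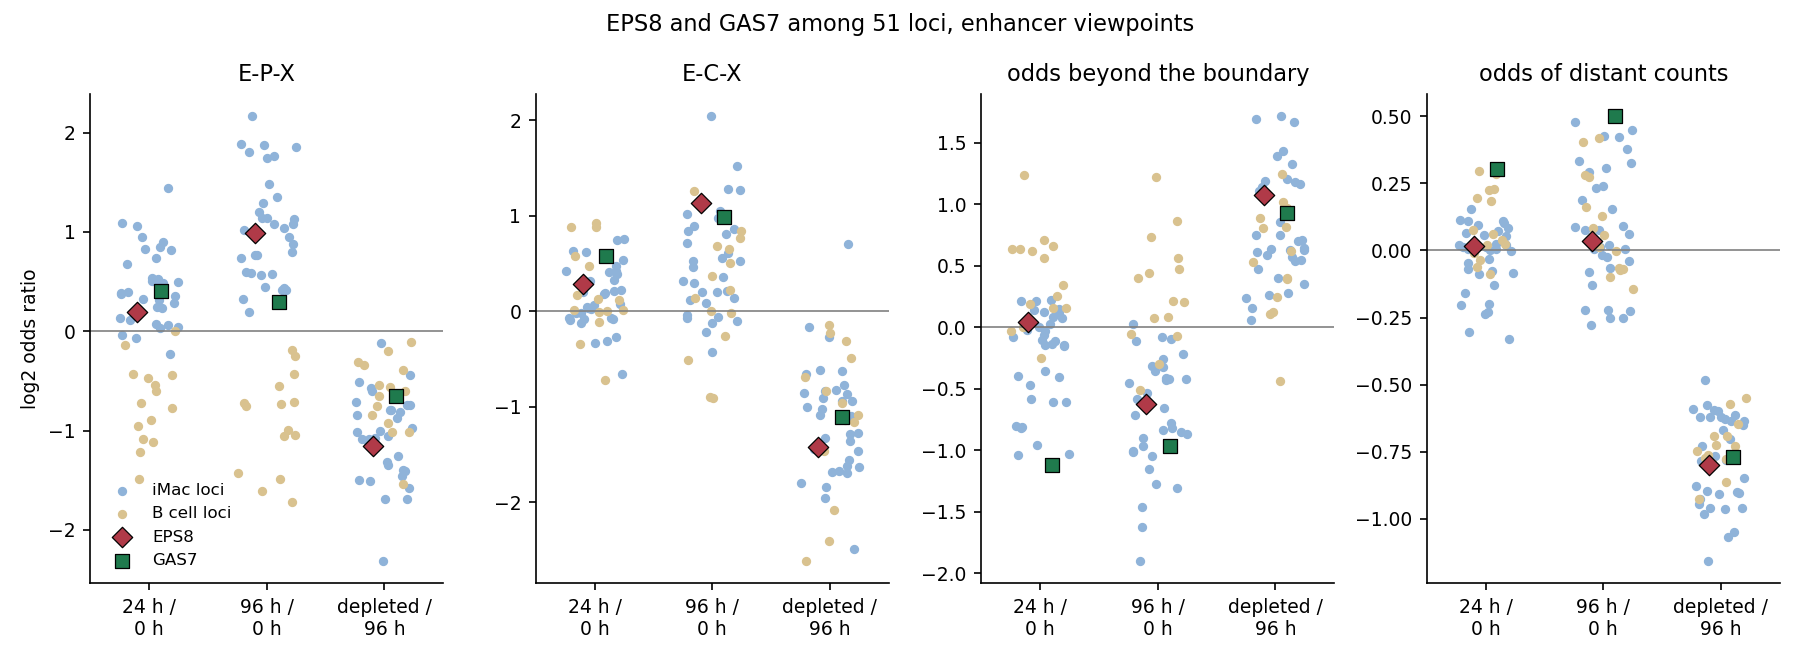
Log2 odds ratios from enhancer viewpoints at 24 h against 0 h, at 96 h against 0 h and in the CTCF-depleted against the 96 h control library, for E-P-X, E-C-X, contacts beyond the boundary site and distant counts. Each point is 1 of 51 loci (blue for iMac, tan for B cell loci), with EPS8 as a red diamond and GAS7 as a green square, and GAS7 lies at the lower edge for contacts beyond the boundary at 24 h (-1.12) and at the upper edge for distant counts at 96 h (0.50).

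The boundary viewpoints gave a separate capture of the same loci, without a depleted library, and the labels do not say whether it used other cells. From the EPS8 CBS, contacts with the promoter (C-P-X) made up 0.613% at 0 h, 0.863% at 24 h and 1.06% at 96 h (170, 312 and 421 counts). From the GAS7 CBS they made up 0.547%, 0.726% and 0.527% (106, 153 and 97 counts). The share grew at each time at EPS8. At GAS7 it was highest at 24 h, as was E-P-X, whose ratio at 96 h against 24 h was not called (-0.11, -0.28 to 0.06). At 96 h against 0 h the log2 odds ratio was 0.79 at EPS8 (0.53 to 1.06) and -0.05 at GAS7 (-0.47 to 0.36), where 66.7% of the 48 loci measured rose.

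At 24 h, where 41.7% of loci rose, C-P-X rose by 0.50 at EPS8 (0.22 to 0.78) and by 0.41 at GAS7 (0.04 to 0.78, adjusted p = 0.0481 in the exact test), a call that 9 alternative settings removed. From 24 h to 96 h EPS8 rose by 0.30 (0.08 to 0.51), as 54.2% of loci did, and GAS7 fell by 0.46 on the log2 scale (-0.85 to -0.09, adjusted p = 0.0237 in the exact test), the lowest value among 48 loci, of which 4.17% fell, and a call that 5 alternative settings removed. The difference between the genes in this step was 0.76 (0.33 to 1.18).

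Contacts of the CBS with the enhancer (C-E-X) numbered 143, 187 and 316 at EPS8, 0.516%, 0.517% and 0.794%, and 130, 167 and 171 at GAS7, 0.671%, 0.793% and 0.929%. At 96 h against 0 h both rose, by 0.62 at EPS8 (0.34 to 0.92) and by 0.47 at GAS7 (0.14 to 0.81), as 54.9% of loci did. The boundary and enhancer windows thus gained contacts whichever of them was the viewpoint. From 24 h to 96 h, where 56.9% of loci rose, only EPS8 was called (0.62, 0.36 to 0.89), with 0.23 at GAS7 (-0.09 to 0.55). At 24 h, where 27.5% of loci rose, the values were 0.004 at EPS8 (-0.32 to 0.33) and 0.24 at GAS7 (-0.10 to 0.58), with no call for either. Counts that joined the CBS with enhancer and promoter at once (C-E-P) were 4, 2 and 4 at EPS8 and 1, 1 and 0 at GAS7, too few to test, and the 0 of 18400 counts allows up to 3 counts, 0.0163%.

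The share of distant counts from the CBS was 25.4%, 28.8% and 29.4% at EPS8 and 22.7%, 22.8% and 22.2% at GAS7. It rose at EPS8 by 0.25 at 24 h (0.21 to 0.30) and by 0.29 at 96 h (0.25 to 0.34), as it did at 90.2% and 84.3% of loci, and was not called from 24 h to 96 h at either gene, where 41.2% rose. At GAS7 the values were 0.01 (-0.05 to 0.07) and -0.04 (-0.10 to 0.02), ranks 48 and 49 of 51. With neighbouring fragments left out both were called lower, at -0.12 and -0.17. The distant share thus grew from the enhancer at GAS7 and from the CBS at EPS8.

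Profiles in 10 kb tiles, within 500 kb of the viewpoint and placed by distance from the enhancer, showed where these contacts lay. From the EPS8 enhancer at 96 h against 0 h, 21 of 98 tiles rose (21.4%) and 55 fell (56.1%). Of the 19 tiles between CBS and promoter 13 rose, and of the 79 outside 53 fell, with medians of 0.33 inside and -0.81 outside. At 24 h only 4 of 98 tiles rose (4.08%) and 2 fell (2.04%). The larger of the 2 rises inside the interval was in the tile from -130 to -120 kb, next to the CBS, with 586 counts at 24 h and 378 at 0 h.

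At 96 h against 24 h, 26 EPS8 tiles rose (26.5%) and 50 fell (51%). The tile from -200 to -190 kb held 278 counts at 96 h and 158 at 0 h, a log2 odds ratio of 1.28 (1.00 to 1.58). The tile from 150 to 160 kb held 190 counts at 96 h and 112 at 0 h, 1.23 (0.89 to 1.58). The tile from -140 to -130 kb, which holds the CBS, had 586 counts at 96 h and 351 at 0 h, 1.22 (1.02 to 1.41). The tiles that fell most were far on the promoter side, such as 360 to 370 kb with 14 counts at 96 h and 84 at 0 h, a ratio of -2.08 (-3.06 to -1.30).

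From the GAS7 enhancer the profile had already moved at 24 h, when 25 of 97 tiles rose (25.8%) and 26 fell (26.8%). Of the 22 tiles between CBS and promoter, 20 rose at 24 h and 20 at 96 h, with medians of 0.60 and 0.66. Tiles outside it had medians of -0.27 and -0.11. Distant counts as a whole rose by 0.30 and 0.50 at GAS7, and the tile values, shares of all counts, include this rise. At 96 h 37 of 98 tiles rose (37.8%) and 14 fell (14.3%). The GAS7 tile of the largest rise at 24 h was 50 to 60 kb, with 731 counts, 1.33%, at 0 h, 1815 counts, 3.10%, at 24 h and 1246 counts, 2.72%, at 96 h. It was the highest tile more than 30 kb from the viewpoint at 24 h and 96 h, and the tile from -50 to -40 kb came next, with 689, 1379 and 1222 counts. Between 24 h and 96 h 24 of 97 GAS7 tiles rose (24.7%) and 4 fell (4.12%), and the tile from -190 to -180 kb rose, with 186 counts at 96 h and 103 at 24 h, a ratio of 1.21 (0.86 to 1.57).

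**Figure D3:**
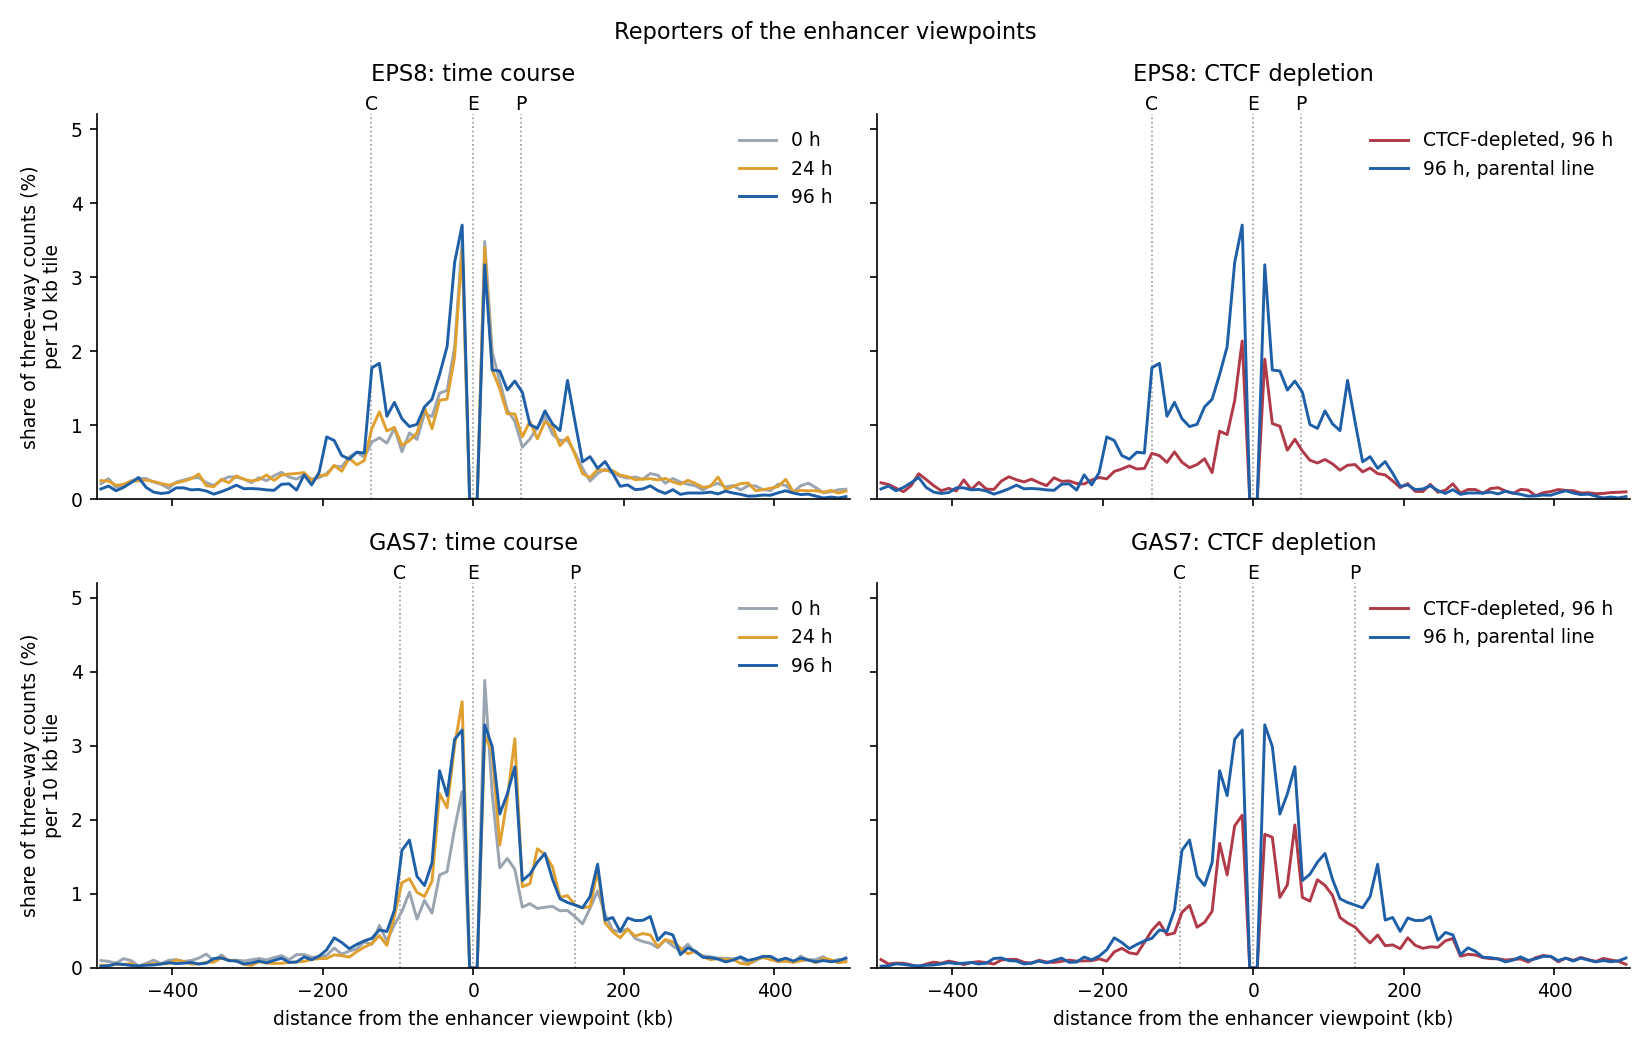
Share of three-way counts (%) with a distant reporter in each 10 kb tile, by distance from the enhancer (kb), for EPS8 and GAS7, with the time course in the left panels and the CTCF-depleted library (red) with its 96 h control (blue) in the right panels. Dotted lines mark boundary CBS (C), enhancer (E) and promoter (P), and the EPS8 profile changes at 96 h, whereas that of GAS7 has changed by 24 h, with a peak of 3.10% at 50 to 60 kb.

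With CTCF depleted, the interval between CBS and promoter held a lower share of counts at both loci. All 19 EPS8 tiles and all 22 GAS7 tiles of this interval were lower than in the 96 h control, with medians of -1.16 and -0.69. Tiles outside it had medians of 0.29 at EPS8 and -0.10 at GAS7. Distant counts as a whole were also a smaller share, 21.0% in the depleted library and 31.7% in the control at EPS8 and 21.6% and 32.0% at GAS7, and the tile values, shares of all counts, include this fall. Over the whole profile 37 of 98 EPS8 tiles (37.8%) and 44 of 98 GAS7 tiles (44.9%) fell. At EPS8 23 tiles rose (23.5%), all outside the interval, and at GAS7 4 rose (4.08%), also outside. With each pair counted once, 15.3% of GAS7 tiles rose and 26.5% fell.

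The largest fall at EPS8 was in the tile from -60 to -50 kb, with 186 counts in the depleted library and 446 in the 96 h control, a log2 odds ratio of -1.92 (-2.18 to -1.67). The tiles next to CTCF elements followed, from 120 to 130 kb with 237 counts in the depleted library and 530 in the control (-1.82) and from -130 to -120 kb with 304 and 606 (-1.66). At GAS7 the largest falls lay past the promoter, from 160 to 170 kb with 377 counts in the depleted library and 642 in the control (-1.67, -1.86 to -1.48) and from 150 to 160 kb with 286 and 442 (-1.52). The GAS7 tile from 50 to 60 kb remained the highest of the depleted profile beyond 30 kb of the enhancer, with 1640 counts, 1.93%, against 2.72% in the control. The GAS7 tile from -500 to -490 kb rose, with 95 counts in the depleted library and 10 in the control (2.30, 1.42 to 3.47).

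Named elements of the study, a list chosen on these cells and therefore no independent evidence of direction, resolved the tiles further. At EPS8 6 of 9 element windows rose at 96 h against 0 h and none of them fell, with a median of 0.58. At GAS7 14 of 18 rose and none fell, with a median of 0.50, and distant counts as a whole rose by 0.50 there. Window values, shares of all counts, include this rise. Of all 48 windows examined, these elements among them, 52.1% rose and 12.5% fell. Of 10 kb tiles, 21.4% at EPS8 and 37.8% at GAS7 rose in this comparison, and 56.1% and 14.3% fell. At 24 h 1 of 9 EPS8 windows rose and 2 fell, while at GAS7 11 of 18 rose and 1 fell (33.3% of all windows rose and 20.8% fell). Of tiles, 4.08% at EPS8 and 25.8% at GAS7 rose at 24 h, and 2.04% and 26.8% fell. In the depleted library 8 of 9 and 16 of 18 fell, among 68.8% of all windows, and none rose, among 4.17% of all. Of tiles, 37.8% at EPS8 and 44.9% at GAS7 fell there, and 23.5% and 4.08% rose. Distant counts as a whole had ratios of -0.80 at EPS8 and -0.77 at GAS7, and the window values include this fall.

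At EPS8 the enhancer element at -25.7 kb held the most counts, with 820 in the depleted library and 1130, 1106 and 1210 at 0, 24 and 96 h. It was also the window nearest the viewpoint, and whether its count exceeds what its distance gives was not tested. Its ratio at 96 h against 0 h was 0.58 (0.46 to 0.70) and that of the depleted library -1.24 (-1.37 to -1.11). The window at +134.1 kb, which holds the CTCF core printed above for +130.4 kb and an enhancer element, had 277 counts in the depleted library and 334, 365 and 459 in the time course. It rose by 0.93 at 96 h (0.73 to 1.14) and was lower by -1.38 with CTCF depleted (-1.61 to -1.17). The window at -198.5 kb, with the core printed for -193.6 kb, had 168 counts in the depleted library and 155, 195 and 274 in the time course, a rise of 1.29 (1.00 to 1.59) and a ratio of -1.36 (-1.64 to -1.08).

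From the EPS8 CBS these same CTCF windows stood out. The window at +134.1 kb held 452 counts at 0 h, 893 at 24 h and 1431 at 96 h, 1.63%, 2.47% and 3.59%, and the tile from 120 to 130 kb was the highest beyond 30 kb of the CBS in all 3 libraries. Its log2 odds ratio was 0.61 at 24 h (0.45 to 0.78) and 1.17 at 96 h (1.02 to 1.33). The window at -198.5 kb, on the far side of the CBS, held 205, 383 and 786 counts and rose by 1.43 at 96 h (1.21 to 1.66). Of the 9 EPS8 element windows, 7 rose from the CBS at 96 h and 1 fell, the enhancer element at -155.0 kb with 535, 621 and 634 counts (-0.28, -0.45 to -0.11). Over all 47 windows of both loci, these elements among them, 31.9% rose in this comparison and 2.13% fell. Of EPS8 tiles, 30.3% rose and 18.2% fell.

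From the GAS7 CBS few windows were called. Of its 17 element windows 1 rose at 24 h and 3 at 96 h, and none fell. Over all windows of both loci 10.6% rose at 24 h and 31.9% at 96 h, and 0% and 2.13% fell. The tile from 160 to 170 kb was the highest beyond 30 kb of the CBS in every library, with 236 counts, 1.22%, at 0 h, 260 counts, 1.23%, at 24 h and 210 counts, 1.14%, at 96 h, with overlapping intervals. The window of the GAS7 enhancer element at +23.6 kb rose, with 211 counts at 96 h and 137 at 0 h, a ratio of 0.70 (0.39 to 1.02). In tiles, 13 of 99 rose at 24 h from the EPS8 CBS (13.1%) and 1 fell (1.01%), and 30 rose at 96 h (30.3%) and 18 fell (18.2%). From the GAS7 CBS 3 of 88 rose at 24 h (3.41%) and 1 fell (1.14%), and at 96 h 5 of 84 rose (5.95%) and 4 fell (4.76%), although the GAS7 CBS libraries were also the shallower.

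**Figure D4:**
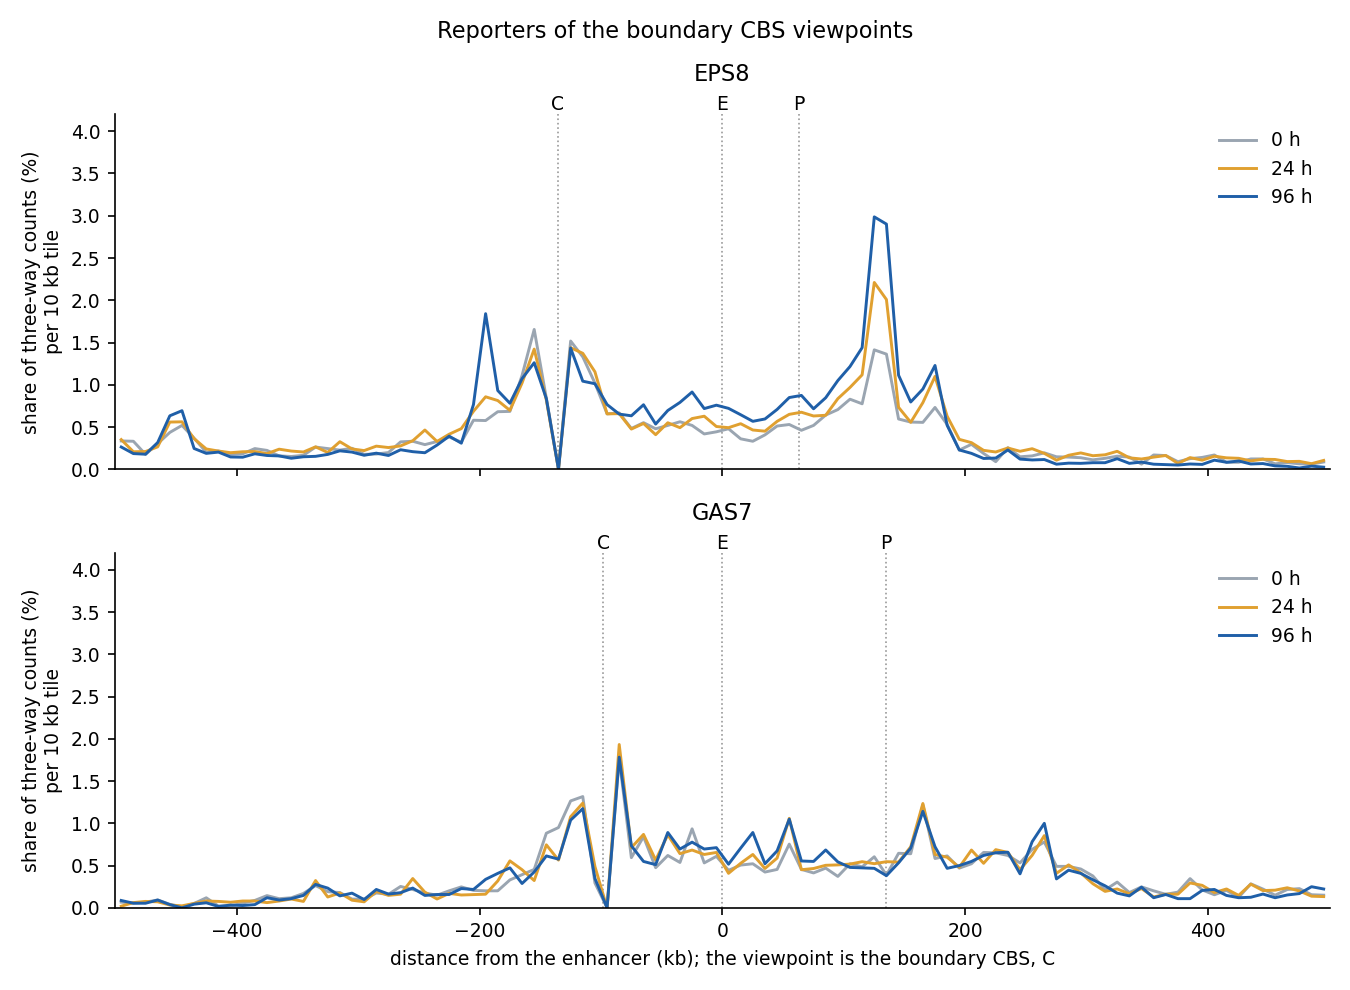
Share of three-way counts (%) with a distant reporter in each 10 kb tile, by distance from the enhancer (kb), for the boundary CBS viewpoints of EPS8 and GAS7 at 0 h (grey), 24 h (orange) and 96 h (blue). At EPS8 the peak at 120 to 130 kb grows at each time (1.41%, 2.21% and 2.99%) and a further one appears at -200 to -190 kb, while the GAS7 peak at 160 to 170 kb stays between 1.14% and 1.23%.

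GAS7 has several annotated starts inside the interval, and windows at the other starts of both genes were added after first values had been seen. The GAS7 start at +50.6 kb, of 1 transcript, held 1725 counts in the depleted library and 906, 2235 and 1579 at 0, 24 and 96 h. The start at -27.3 kb, of 3 transcripts, held 1674 in the depleted library and 1074, 1962 and 1578 in the time course. The start at -40.8 kb, of 4 transcripts, held 1543 in the depleted library and 796, 1546 and 1378 in the time course.

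These internal starts had higher ratios with the GAS7 enhancer than the canonical start did, a difference that was not tested. Their ratios at 24 h were 1.24 (1.13 to 1.35), 0.79 (0.69 to 0.90) and 0.88 (0.76 to 1.00). At 96 h they were 1.09, 0.84 and 1.07, beside 0.41 and 0.30 at the canonical start at 24 h and 96 h. Distant counts as a whole rose by 0.30 and 0.50 at GAS7, and tiles between CBS and promoter had medians of 0.60 and 0.66. The window values include this rise. In the depleted library the internal starts were lower by -0.78, -0.83 and -0.74, near the -0.77 of distant counts as a whole at GAS7. The windows overlap those of study elements, so they are no separate evidence, and lie closer to the enhancer than the canonical start does. From the GAS7 CBS only the start at +50.6 kb rose at 24 h (0.45, 0.16 to 0.74, not called with 7.5 kb windows) and only that at -40.8 kb at 96 h (0.68, 0.35 to 1.02).

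Other GAS7 elements varied in their response to depletion, in a comparison in which distant counts as a whole had a ratio of -0.77 at GAS7. The enhancer element at +89.9 kb held 1408 counts in the depleted library and 557, 1249 and 944 in the time course, a rise of 1.09 at 24 h and a ratio of -0.32 with CTCF depleted (-0.44 to -0.20), which became 0.10 when each pair was counted once. The CTCF and enhancer elements at +162.4 kb held 425 counts in the depleted library and 632, 846 and 686 in the time course, a rise of 0.38 at 96 h and a ratio of -1.59 with CTCF depleted (-1.77 to -1.42). The CTCF element at +232.0 kb held 317 counts in the depleted library and 236, 387 and 445 in the time course, a rise of 1.18 at 96 h (0.95 to 1.42) and a ratio of -1.39 with CTCF depleted. The CTCF element at -75.9 kb, between CBS and enhancer, held 571 counts in the depleted library and 458, 720 and 683 in the time course, and was lower by -1.16 with CTCF depleted.

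At EPS8, 1 of the 3 other starts rose at 96 h, where 52.1% of all windows of both loci rose. All 3 were called lower with CTCF depleted, as were 68.8% of all windows. Distant counts as a whole had a ratio of -0.80 at EPS8 there, and the window values include this fall. The starts at +91.9 and -63.7 kb had no call at 24 h or 96 h against 0 h. The start at +91.9 kb held 336 counts in the depleted library, against 426 in the 96 h control, and that at -63.7 kb held 293, against 468 in the control, a ratio of -1.33 (-1.55 to -1.12), and both were called lower. The outermost start at +155.6 kb held 279 counts in the depleted library and 148, 206 and 231 in the time course, a rise of 1.11 at 96 h (0.81 to 1.42) and a ratio of -0.37 with CTCF depleted (-0.63 to -0.12). This window cannot be told apart from that of STRAP, a neighbouring gene whose window covers nearly the same fragments and rose by 1.06 at 96 h.

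Starts of other genes around both loci were counted as well. The 12 neighbouring starts at GAS7 include the skeletal muscle myosin heavy chain genes MYH1, MYH2, MYH4, MYH8 and MYH13. None rose and 7 fell at 24 h, and none rose and 6 fell at 96 h, with medians of -0.74 and -0.54. Of all windows of both loci, 20.8% and 12.5% fell. All 12 lie outside the interval between CBS and promoter, where 25 of 75 tiles fell at 24 h and 13 of 76 at 96 h. The windows of GSG1L2 and GLP2R overlap, so the starts are not separate results. In the depleted library 2 of the 12 rose and 1 fell, while 4.17% of all windows rose and 68.8% fell. The start of STX8 (syntaxin 8, a vesicle fusion protein) held 68 counts in the depleted library, against 16 in the 96 h control, a ratio of 1.17 (0.40 to 2.08) that was not called with 7.5 kb windows, and the window of CFAP52, the other that rose, overlaps it almost whole. At EPS8, of 3 neighbouring starts only that of STRAP rose, by 0.43 at 24 h and by 1.06 at 96 h, where 33.3% and 52.1% of all windows rose. With CTCF depleted 2 of the 3 fell, among the 68.8% of all windows.

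The pairs of partners joined with the enhancer in the same ligation product were counted for both genes as a description, without a test, and those named were picked, with values seen, from the pairs with most counts at 96 h. At EPS8 the promoter and the -25.7 kb element, the window nearest the viewpoint, met the enhancer in 26 counts of the depleted library. At 0, 24 and 96 h they did so in 19, 19 and 55, a log2 odds ratio of 1.97 at 96 h against 0 h (1.22 to 2.83). The CBS and the same element met it in 10 counts of the depleted library and in 18, 16 and 49, with a ratio of -2.88 for the depleted library (-4.09 to -1.94). The CBS and the +134.1 kb window, met at the enhancer in 5 counts of the depleted library and in 8, 18 and 23. The pair of the -25.7 kb element and the -63.7 kb start, also among those with most counts, had 18 counts in the depleted library and 37, 42 and 40 in the time course.

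At GAS7 the start windows at -27.3 and +50.6 kb, on opposite sides of the enhancer, met it in 129 counts of the depleted library and in 46, 178 and 99 at 0, 24 and 96 h. The ratio was 1.85 at 24 h (1.38 to 2.36) and -0.51 in the depleted library against the 96 h control (-0.90 to -0.12). Distant counts as a whole had ratios of 0.30 and -0.77 at GAS7 in these comparisons. The pair values, shares of all counts, include these changes. The +23.6 and +48.6 kb elements met it in 121 counts of the depleted library and in 101, 219 and 151, with ratios of 1.02 at 24 h and -1.21 with CTCF depleted. Both GAS7 pairs had most counts at 24 h. At 96 h against 24 h the pair of starts had a ratio of -0.49 (-0.86 to -0.13). That of the +23.6 and +48.6 kb elements was -0.18, with an interval of -0.49 to 0.12 that includes 0.

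The place of the third fragment of E-P-X counts was read as well. At EPS8 it lay beyond the boundary site in 16.6% of 446 counts in the depleted library and in 22.5%, 20.1% and 12.9% at 0, 24 and 96 h. At GAS7 this was 9.90% of 596 counts in the depleted library and 12.2%, 7.90% and 6.53% in the time course, where the intervals at 0 h and 24 h overlapped (9.44% to 15.4% and 6.01% to 10.2%). The EPS8 share beyond the promoter was 32.3% in the depleted library and 26.8%, 35.4% and 29.8% in the time course. Beyond the boundary site the intervals of the depleted and the 96 h library overlapped at both genes (13.3% to 20.4% and 10.4% to 15.8% at EPS8, 7.62% to 12.6% and 4.54% to 9.05% at GAS7). Distant counts with both reporters inside the gene made up 23.6% in the depleted library and 28%, 26.4% and 38.1% in the time course at EPS8, and 44.7% and 41.6%, 54.2% and 49.6% at GAS7. The median distance of distant reporters from the EPS8 enhancer was 161.1 kb in the depleted library and 130.7, 133.4 and 104.0 kb in the time course, and from the GAS7 enhancer 96.5 kb and 102.6, 77.8 and 84.1 kb. For counts inside the gene and for the median distance, the EPS8 value changed mainly after 24 h and the GAS7 value mainly before.

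**Figure D5:**
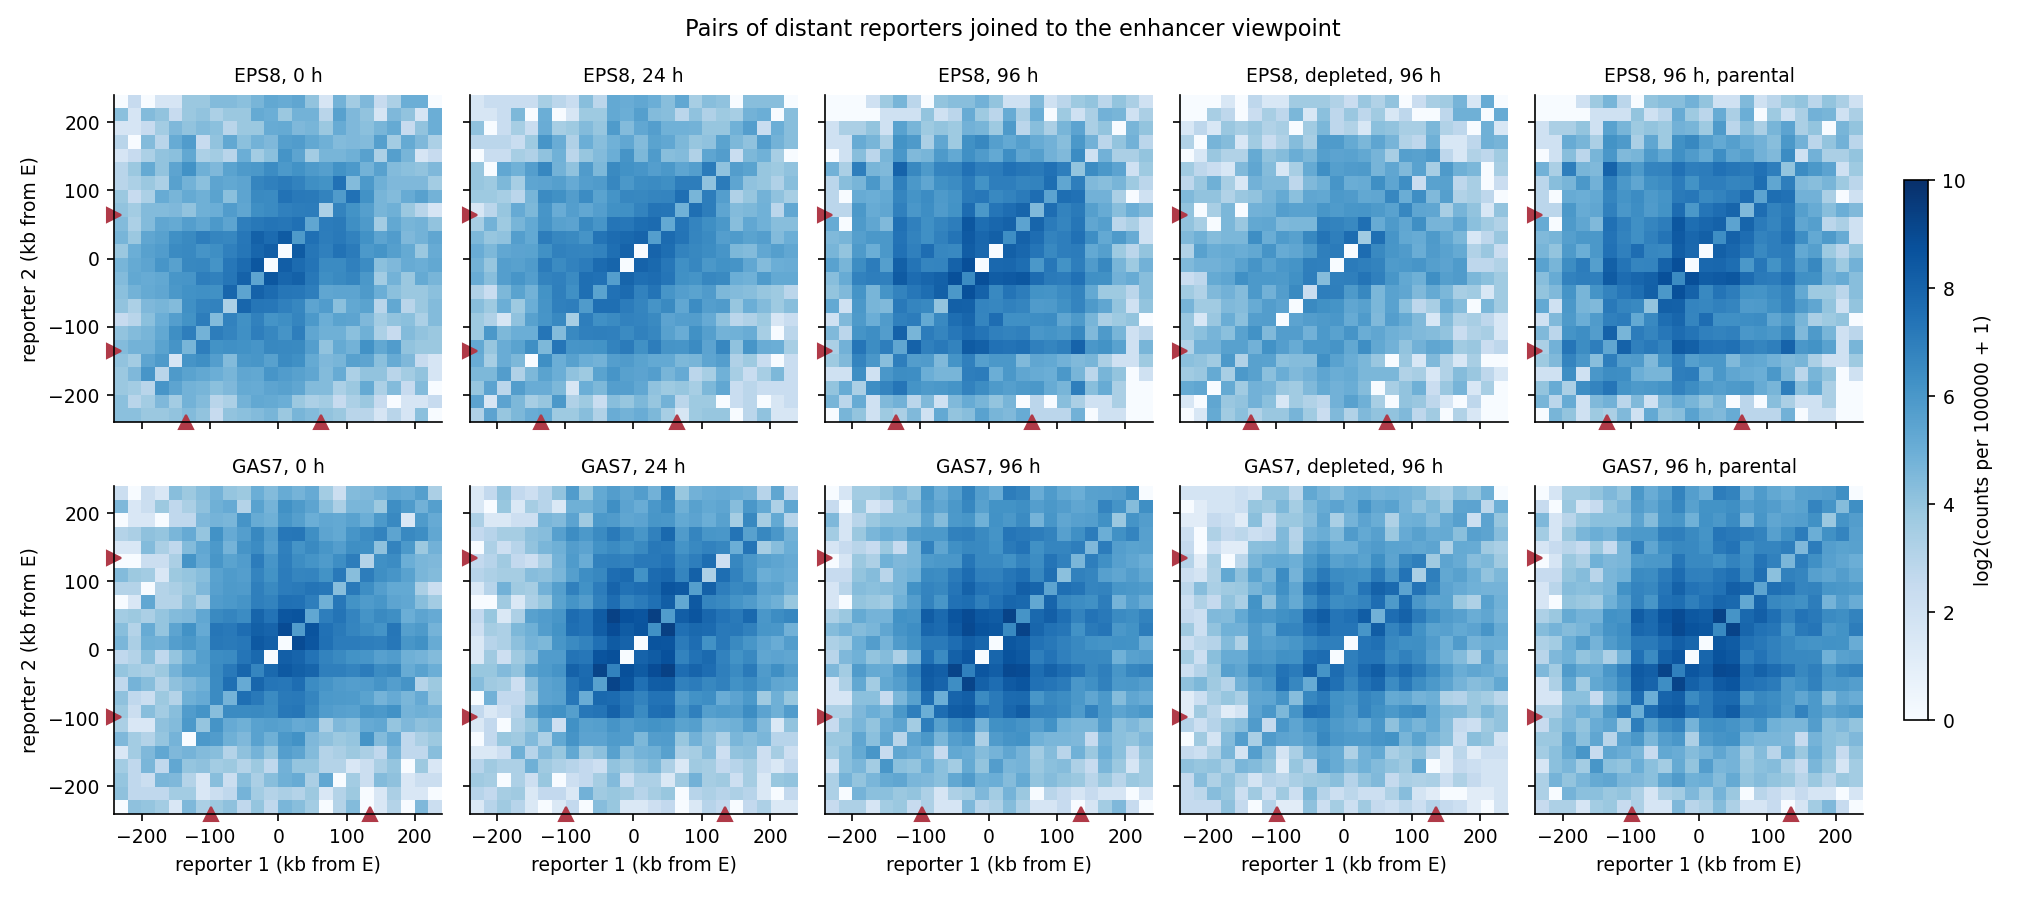
Three-way maps of the enhancer libraries, in which each cell gives log2 of counts per 100000 plus 1 for a pair of distant reporters in 20 kb bins, by distance from the enhancer (kb, both axes), for EPS8 (top) and GAS7 (bottom) at 0, 24 and 96 h, and in the depleted library beside its 96 h control. Red triangles mark CBS and promoter, and the EPS8 map gains stripes at the CBS and near 130 kb at 96 h, the GAS7 map darkens near the enhancer at 24 h, and both are paler with CTCF depleted.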

How the data were processed

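Tri-C libraries were made with NlaIII from 3 biological replicates a condition. The authors ran CapCruncher in capture mode against hg38, merged replicates and kept reads with at least 2 reporters in cis. The deposited values are counts of fragment pairs seen together with the viewpoint, and the fragments of the 14 files matched NlaIII sites of the reference in 975964 of 975964 cases. Fragments of the designed capture probes served as viewpoints.

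Here raw counts were used. Starts came from GENCODE 44 and element positions from the study's annotation. Totals took both reporters within 1 Mb, and windows spanned 12 kb. Each window was set against the remaining counts of 2 libraries in an exact conditional binomial test, two-sided, Benjamini-Hochberg adjusted over all loci, over the tiles of a locus or over windows and tiles, and called at an adjusted p under 0.05, with at least 20 counts. Log2 odds ratios used a pseudo-count of 0.5, shares have Clopper-Pearson intervals at 95%, and a count of 0 allows 3. IFNGR2 and TASL were left out as in the study. Differences between genes come from the variances of the log odds ratios. CBS tiles were laid on the enhancer's grid.

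Both genes, the lists and the tests were chosen with earlier results of these data known, and windows at other starts were added after values had been seen. Named were both genes throughout, partner windows with most counts, further windows picked with values seen, and up to 3 tiles of largest rise and fall with at least 50 counts. Alternatives changed windows, exclusion, total, counting and promoter position. A list of loci of related genes and 1 viewpoint sequence are not reported here. The tile test was checked on simulated counts that were drawn independently. Reads entering several counts and spread between replicates were not simulated, so the check does not cover them. Tools were Python 3.11.15, NumPy 2.4.6, pandas 2.3.3, SciPy 1.17.1, pysam 0.24.0 and matplotlib 3.10.9.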

Additional observations from a re-analysis of the deposited data

How the results depend on the processing

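No paired analysis was possible because replicates were merged before deposit, and no replicate was left out for the same reason. Of 572 alternatives to comparisons of EPS8 and GAS7, 518 kept direction and side of the threshold. The causes were not tested. Values are log2 odds ratios.

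For EPS8 E-P-X at 24 h against 0 h the call was lost with a 20 kb exclusion (0.21), distant counts as the total (0.19), pairs counted once (0.14), counts divided by 3 (0.19) and neighbouring fragments left out (0.16). EPS8 E-C-X at 24 h was lost with counts divided by 3 (0.28), and C-P-X at 24 h with distant counts as the total (0.32), counts divided by 3 (0.48) and the outermost start (0.13). EPS8 E-P-C was called with 30 kb windows (1.36 at 96 h against 0 h, -2.41 depleted against 96 h) and with no minimum count (2.41 and -1.70). The EPS8 share beyond the boundary at 24 h was called with a 5 kb exclusion (0.043) and with pairs counted once (0.054). The EPS8 distant share was called with a 5 kb exclusion (0.040 at 24 h, 0.093 at 96 h) and changed sign without neighbouring fragments (-0.051 at 24 h and -0.12 at 96 h against 0 h, -0.068 at 96 h against 24 h).

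GAS7 E-P-X at 96 h against 0 h turned to -0.065 with distant counts as the total and lost its call with counts divided by 3 (0.30), and the depleted library's fall lost its call with distant counts as the total (-0.087). GAS7 C-P-X at 24 h lost its call with 7.5 kb windows (0.45), a 20 kb exclusion (0.25), distant counts (0.41) or the whole chromosome (0.38) as the total, pairs counted once (0.39), counts divided by 3 (0.42), neighbouring fragments left out (0.34) and the capture probe as promoter (0.31), and turned to -0.045 with 30 kb windows, which also called a fall at 96 h (-0.27). GAS7 C-E-X was called at 24 h with 7.5 kb windows (0.52) and lost at 96 h with counts divided by 3 (0.48). From the GAS7 CBS the distant share was called at 24 h with a 5 kb exclusion (0.057), and without neighbouring fragments it was -0.12 at 24 h and -0.17 at 96 h.

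Of 656 alternatives to partner windows, 587 kept direction and side. With pairs counted once, depleted against 96 h, the GAS7 windows turned to 0.10 at +89.9 kb, 0.063 at +108.1 kb and 0.16 at +259.3 kb, and the CFAP52 start turned to -0.019 with 7.5 kb windows. Counts of called loci stayed within 1.5 times in 497 of 586 alternatives and of tiles in 52 of 84. With pairs counted once, 15.3% of GAS7 tiles rose and 26.5% fell in the depleted library, and with 20 kb tiles 42% fell at GAS7 at 24 h. Depth limits E-P-C and C-E-P most.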
